A study of Homo sapiens with 4 samples.

Results

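The J-domain cochaperones, also called the HSP40 family, are the proteins that bring misfolded clients to HSP70 and set its cycle going. They were followed here across 4 Clariom S arrays as the genes whose symbol in the array's gene table begins with DNAJA, DNAJB or DNAJC and a number. The rule found 44 genes with 1 probe set each, out of 17687 named genes and 21448 probe sets tested: 4 of class A, 12 of class B and 28 of class C. No probe set is listed under DNAJC5 or DNAJB3, and both genes were not analysed here. RNA came from 786-O cells (listed as CRL-1932), a human clear cell renal carcinoma line, grown as untreated dishes or as dishes given MCP-1, the chemokine CCL2. All dishes were kept in the same RPMI1640 medium with serum, and the untreated dishes were of the same passage. Each group had 2 arrays of this 1 line, and MCP-1 was given at 5 ng/mL for 16 h by the sample labels (the text of the study gives a longer time). The labels call the treated arrays biological replicates and the methods speak of duplicate dishes, but whether the dishes were separate experiments is not given, so p-values measure the spread between dishes, which may be technical. The study used the arrays to ask which processes MCP-1 altered.

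A J domain is a short helical domain whose conserved histidine, proline and aspartate motif makes HSP70 hydrolyse ATP, which closes HSP70 on its client. Class A proteins also carry a glycine and phenylalanine-rich stretch and a zinc-binding region, class B proteins the glycine and phenylalanine-rich stretch without the zinc-binding region, and class C proteins have the J domain alone beside unrelated parts. Each compartment has its own set: DNAJA1, DNAJA2 and DNAJB1 serve the HSP70 proteins of the cytosol, the ERdj proteins serve HSPA5 (BiP) in the endoplasmic reticulum (ER), and DNAJA3 and DNAJC19 serve HSPA9 in mitochondria.

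The values are log2 signals. The array medians lay between 6.20 and 6.28, and the arrays correlated with each other at r between 0.9929 and 0.9951 across probe sets, which are not independent replicates. The 90th percentile of the negative control probe sets' means was 6.11 and served as a background level. The mean of 37 DNAJ genes lay above it, and that of the other 7 (DNAJA4, DNAJB7, DNAJB8, DNAJB13, DNAJC5B, DNAJC5G and DNAJC12) lay below it. Of 10 marker genes of renal epithelium and clear cell carcinoma, 8 were measured and all 8 lay above the background level, PAX8 and VIM among them. Of 10 markers of leukocytes, endothelium and fibroblasts, 9 were measured and only CD68 lay above it. The log2 signals of these 9 summed to 42.0 and 45.3 in the untreated arrays and 43.96 and 45.7 in the treated arrays. Most of the 9 lay below the background level, and a sum of log2 signals is not an amount of RNA. The part of these genes in the results was not tested. A bulk signal cannot tell fewer cells from less RNA per cell.

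MCP-1-treated cells had higher signals of 3 cytosolic cochaperones than untreated cells: DNAJB1 by 1.85-fold, DNAJA1 by 1.65-fold and DNAJB4 by 1.45-fold. No DNAJ gene passed an adjusted p of 0.05 in limma, fitted with a block for the replicate number, a test that called 7 of 21448 probe sets (0.0326%). At an unadjusted p under 0.05, DNAJA1 and DNAJB1 passed, which is 2 of 44 (4.55%) beside 4.95% of all probe sets. The same 2 genes passed when a fold of at least 1.5 was also asked, as 4.23% of all probe sets did. With a fold of at least 2 none of the 44 passed, beside 0.434% of all. The paired t-test of the methods at p under 0.05 and that fold likewise passed none of them, beside 0.0932% of all. Without the block, 3 of 44 (6.82%) had an unadjusted p under 0.05, with DNAJB4 as the third gene, beside 4.51% of all. At each of these thresholds the share of DNAJ genes was close to that of the whole array.

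Most other cochaperones differed by less than their standard error. The standard errors of the 44 log2 fold changes ran from 0.24 to 0.35. The median log2 fold change of the 44 genes was 0.057, beside 0.013 over all probe sets, and the middle of the list, from its lower to its upper quartile, ran from -0.092 to 0.20, beside -0.15 to 0.17. Among the 37 genes above the background level, 23 (62.2%) had a higher mean in treated cells, beside 51.2% of the 10871 probe sets above it. Both treated arrays lay above both untreated arrays in 9 of the 37 (24.3%), beside 16.4% of those probe sets, and both lay below in 4 of the 37 (10.8%), beside 16.5%. Among the 9 is DNAJC6, which no array placed above its own 90th percentile of negative controls. Among the 4 is DNAJC28, which only 2 arrays placed above theirs. The plot of differences by class shows the narrow spread of the list, with DNAJA1, DNAJB1 and DNAJB4 to the right of it.

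**Figure D1:**
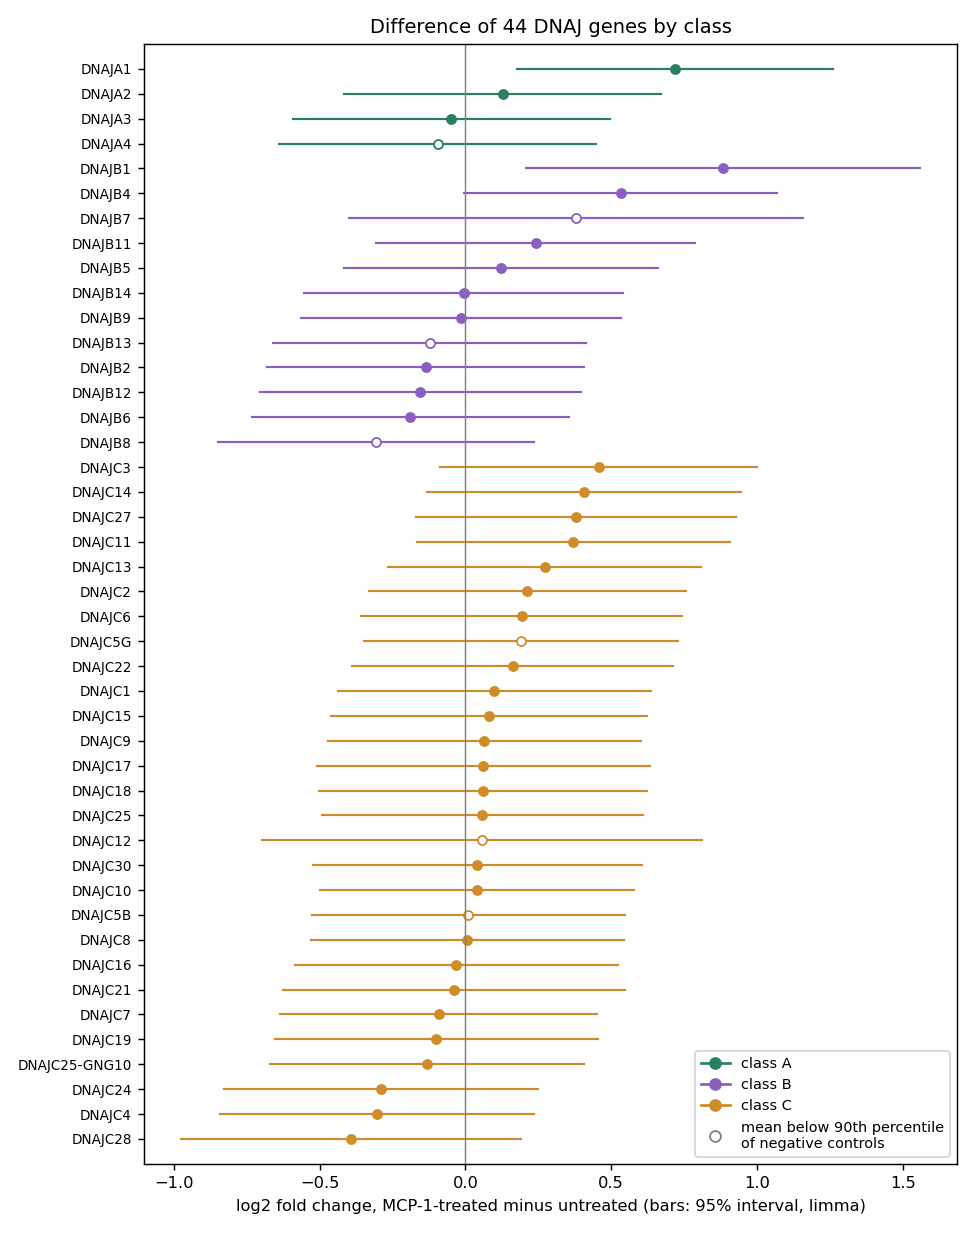
The log2 fold change (x axis, MCP-1-treated minus untreated, 2 arrays a group) of each of the 44 DNAJ genes (rows), with its 95% interval from limma and colours for class A, B and C; open circles mark the 7 genes below the background level. The intervals of DNAJA1 (0.18 to 1.26) and DNAJB1 (0.21 to 1.56) lie above 0, and those of the other genes include it.

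The class B gene DNAJB1 encodes HSP40 proper, the heat-inducible partner of HSP70 in the cytosol and nucleus. Its untreated arrays read 11.08 and 11.42 and its treated arrays 12.57 and 11.69. Both treated arrays were above both untreated ones, with treated replicate 1 well above the rest. The log2 fold change was 0.88 (SE 0.31, 95% interval 0.21 to 1.56; limma adjusted p = 0.957), ninth from the top among the 10871 probe sets above the background level. The size depended on which dish was read: the difference was 1.49 between the replicates numbered 1 and 0.28 between those numbered 2. It was 0.44 without treated replicate 1 and 1.32 without treated replicate 2.

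DNAJA1, a class A protein that is farnesylated and feeds clients to cytosolic HSP70, read 12.53 and 12.50 in untreated cells and 13.36 and 13.10 in treated cells. Here the untreated dishes lay close together and both treated dishes stood clear of them. The log2 fold change was 0.72 (SE 0.25, 95% interval 0.18 to 1.26; limma adjusted p = 0.957), and the replicate pairs gave 0.83 and 0.60. Without 1 array at a time it stayed between 0.59 and 0.85. The reference table lists 6 pseudogenes of DNAJA1 by symbol, and probes may read such copies.

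DNAJB4, a close relative of DNAJB1, read 10.32 and 10.02 in untreated cells and 10.83 and 10.57 in treated cells. The groups did not overlap, and the replicate pairs gave differences of 0.52 and 0.55. How close these are depends on the replicate numbers, which did not visibly pair the dishes. The log2 fold change of DNAJB4 was 0.53 (SE 0.24, 95% interval -0.0037 to 1.07; limma adjusted p = 1). A limma fit whose variance prior followed the signal level and was robust to outliers called 69 of 21448 probe sets. Among the 44 DNAJ genes it called 2, DNAJB1 (adjusted p = 0.00179) and DNAJA1 (adjusted p = 0.0111). With 1 residual degree of freedom, these p-values rest more on the prior than on each gene's own spread. The treated arrays of DNAJB1 read 12.57 and 11.69, further apart than those of DNAJA1 (13.36 and 13.10).

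**Figure D2:**
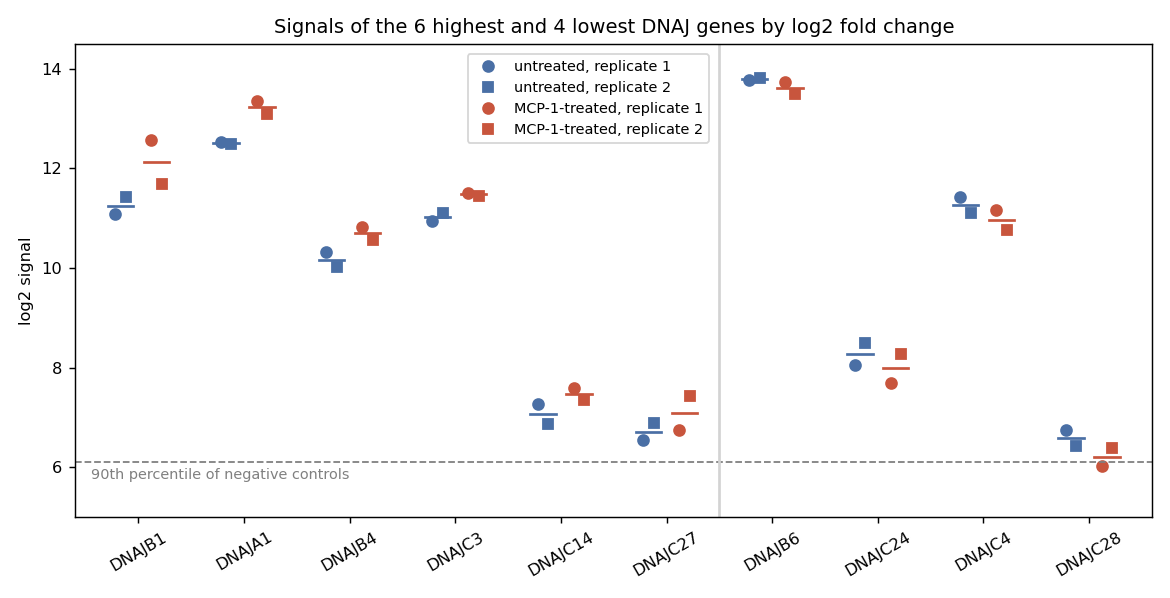
Log2 signal (y axis) of each of the 4 arrays for the 6 highest (left) and 4 lowest (right) DNAJ genes by log2 fold change among the 37 above the background level, with circles and squares for replicates 1 and 2 and bars for group means. The treated points of DNAJB1, DNAJA1, DNAJB4, DNAJC3 and DNAJC14 lie above both untreated points, and those of DNAJC27, DNAJC24 and DNAJC4 overlap them.

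The promoters of these genes were read for the letters of the heat shock element, the inverted GAA and TTC units to which heat shock factors bind, because DNAJB1 is a textbook heat shock gene. Windows of 300 bases around the annotated start, from 250 bases before it to 50 after it, came from RefSeq on GRCh38.p14, and 40 of the 44 genes had at least 1, with 52 windows in all. The 2-unit form was GAANNTTC or TTCNNGAA and the 3-unit form, which contains it, GAANNTTCNNGAA or TTCNNGAANNTTC; each is searched on both strands by these spellings. The stretches below run 5′ to 3′ on the gene's strand from 150 bases before the start to 20 after it, and capitals mark the matches. They are shown for the 3 genes with the highest differences, for DNAJB6, whose window also holds the 3-unit form, and for DNAJC3, the next gene in size of difference.
DNAJB1, chr19:14518378-14518547, minus strand: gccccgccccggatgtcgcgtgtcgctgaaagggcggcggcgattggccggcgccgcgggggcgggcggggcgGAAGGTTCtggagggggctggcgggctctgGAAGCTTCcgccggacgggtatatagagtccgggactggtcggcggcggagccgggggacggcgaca
DNAJA1, chr9:33025123-33025292, plus strand: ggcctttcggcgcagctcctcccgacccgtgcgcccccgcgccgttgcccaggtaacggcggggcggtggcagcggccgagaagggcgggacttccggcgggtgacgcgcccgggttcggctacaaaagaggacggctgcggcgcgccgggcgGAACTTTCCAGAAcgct
DNAJB4, chr1:78004789-78004958, plus strand: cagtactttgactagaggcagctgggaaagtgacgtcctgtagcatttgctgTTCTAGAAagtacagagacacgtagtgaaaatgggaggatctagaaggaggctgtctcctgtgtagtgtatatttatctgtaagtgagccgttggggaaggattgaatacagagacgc
DNAJB6, chr7:157336854-157337023, plus strand: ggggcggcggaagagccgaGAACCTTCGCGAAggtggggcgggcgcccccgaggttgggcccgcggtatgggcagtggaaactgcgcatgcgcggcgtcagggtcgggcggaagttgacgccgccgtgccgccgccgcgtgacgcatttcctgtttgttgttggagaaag
DNAJC3, chr13:95676989-95677158, plus strand: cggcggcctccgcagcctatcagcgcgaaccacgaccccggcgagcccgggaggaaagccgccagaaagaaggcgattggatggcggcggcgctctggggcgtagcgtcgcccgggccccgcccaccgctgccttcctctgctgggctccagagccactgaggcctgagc

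The 3-unit letters were found in 2 of the 40 genes with a window, DNAJA1 (bases 4 to 16 after the start) and DNAJB6 (bases -131 to -119), beside 0.608% of 27305 genes and 0.49% of 35116 windows. The 2-unit letters were found in 8 of 40 (20%), beside 16.2% of genes and 13.5% of windows. DNAJB1 held them at -77 to -70 and at -47 to -40 in the stretch shown, and once more in another of its 3 windows; DNAJB4 held them at -98 to -91 in 1 of 2 windows. The remaining genes with the 2-unit letters were DNAJA4, DNAJB7, DNAJC15 and DNAJC6. The log2 fold changes of the 8 genes ran from -0.19 to 0.88 with a median of 0.29, 6 of them higher and 2 lower. Those of the 32 without the letters ran from -0.39 to 0.46 with a median of 0.040, 18 higher and 14 lower. The element was looked for because of DNAJB1, which is among the 8 and has the highest difference. These medians therefore do not test the letters, and the same split over all genes was not made. Of the 8, DNAJA4 and DNAJB7 lay below the background level, and no array placed DNAJC6 above its own 90th percentile of negative controls. DNAJB6, with the 3-unit form, read 13.79 and 13.82 in untreated cells and 13.73 and 13.50 in treated cells. These are matches of letters only, and binding was not measured.

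**Figure D3:**
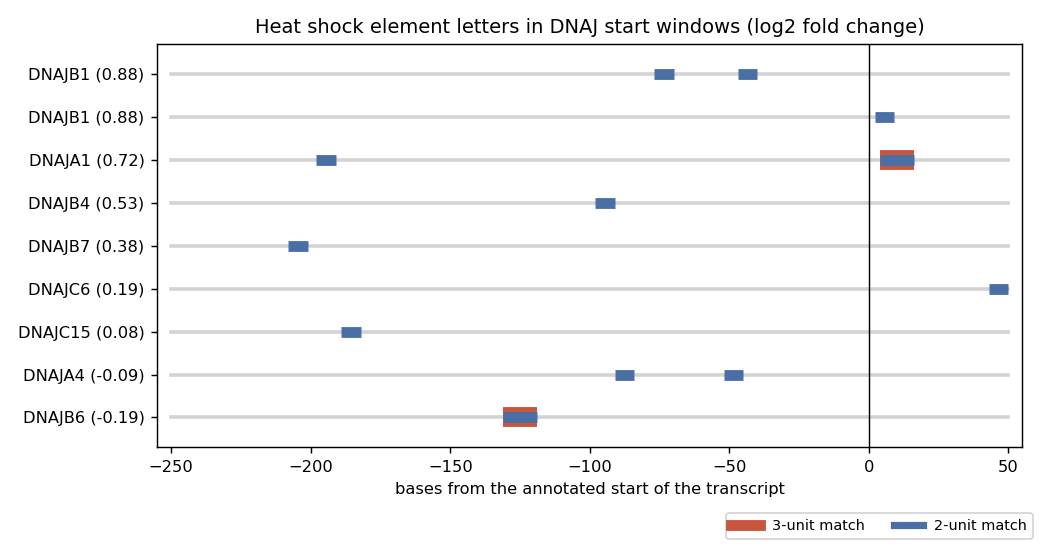
Positions of 2-unit (blue) and 3-unit (red) heat shock element letters, in bases from the annotated transcript start (x axis), in each start window (row) of a DNAJ gene that holds any, with the log2 fold change of the gene in brackets. Of the 3 genes with the highest differences, DNAJB4 has a match before the start and DNAJA1 has matches on both sides of it. DNAJB1 has matches before the start in 1 window and after it in another. DNAJB6 has the 3-unit form and a log2 fold change of -0.19.

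The remaining cochaperones of the cytosol and nucleus had log2 fold changes between -0.31 and 0.21. DNAJA2, which refolds clients with the constitutive HSP70, read 12.07 and 12.12 in untreated and 12.31 and 12.13 in treated cells, so that the treated arrays were higher but only by 0.13 on average. DNAJB5, another relative of DNAJB1, differed by 0.12 with overlapping groups. DNAJB6, which keeps polyglutamine proteins from aggregating, was 0.19 lower on the log2 scale, with both treated arrays below both untreated arrays (log2 fold change -0.19, SE 0.25, 95% interval -0.73 to 0.36; limma adjusted p = 1), and 8 pseudogenes are listed for it by symbol. DNAJB2, which carries ubiquitin-binding motifs, read 9.96 and 10.00 in untreated and 9.95 and 9.74 in treated cells, a log2 fold change of -0.14.

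Class C proteins of these compartments have special tasks. DNAJC2, a subunit of the ribosome-associated complex that meets nascent chains, had a log2 fold change of 0.21. DNAJC7, which binds both HSP70 and HSP90, had -0.092, and DNAJC21, a ribosome biogenesis factor, had -0.039 with replicate pairs of opposite sign (0.31 and -0.39). DNAJC8, a nuclear protein tied to splicing, read 14.03 and 14.05 in untreated and 14.07 and 14.02 in treated cells. DNAJC9, a histone chaperone, read 10.54 and 10.60 against 10.61 and 10.66, a log2 fold change of 0.064 in which both treated arrays lay just above the untreated ones. DNAJC17, which is tied to splicing as well, had 0.062. DNAJC24, a factor of diphthamide synthesis, was among the lowest, at 8.05 and 8.50 in untreated and 7.70 and 8.27 in treated cells. Its groups overlapped (log2 fold change -0.29, SE 0.24, 95% interval -0.83 to 0.25; limma adjusted p = 1), and without treated replicate 1 the difference was 5.5e-06. DNAJA4, DNAJB8 and DNAJC12 lay below the background level, with log2 fold changes of -0.095, -0.31 and 0.057. Over all 17 cochaperones of the cytosol and nucleus the median was 0.057, with 10 higher and 7 lower, and with 1 array left out it ran from 0.012 to 0.036.

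The 10 ER cochaperones, all above the background level, gave a median log2 fold change of 0.050 (0.0016 to 0.15 with 1 array left out), with 6 higher and 4 lower and none past limma's threshold, adjusted or unadjusted. DNAJC3 (p58IPK), which serves BiP and inhibits the eIF2 alpha kinases, had the highest difference of them. It read 10.94 and 11.11 in untreated and 11.51 and 11.45 in treated cells, with no overlap, and its log2 fold change was 0.46 (SE 0.24, 95% interval -0.086 to 0.9997; limma adjusted p = 1). DNAJC14, an ER membrane protein, read 7.26 and 6.86 against 7.59 and 7.35, also without overlap, a log2 fold change of 0.41 that was 0.21 without untreated replicate 2 and 0.61 without untreated replicate 1. DNAJB11 (ERdj3), a soluble partner of BiP, read 11.65 and 11.24 in untreated and 11.74 and 11.63 in treated cells, where treated replicate 2 lay between the untreated values; its log2 fold change of 0.24 was 0.031 without untreated replicate 2 and 0.45 without untreated replicate 1.

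The other ER cochaperones had log2 fold changes between -0.15 and 0.10. DNAJB9 (ERdj4), which holds the sensor IRE1 in check, read 8.89 and 8.68 in untreated and 8.71 and 8.83 in treated cells. Its log2 fold change of -0.016 came from replicate pairs of opposite sign, -0.18 and 0.15. DNAJC10 (ERdj5), a disulfide reductase, read 13.08 and 13.37 against 13.18 and 13.35, and DNAJC1 (ERdj1), a membrane partner of BiP, read 10.88 and 10.76 against 11.01 and 10.83. The groups of both genes overlapped. The ER membrane proteins DNAJB12 and DNAJB14, whose J domains face the cytosol, had log2 fold changes of -0.15 and -0.0052, and DNAJC16 and DNAJC18 had -0.031 and 0.061. The letters of the ER stress response element (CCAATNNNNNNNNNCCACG or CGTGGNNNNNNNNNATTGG) were in no window of the 40 genes, beside 0.0916% of all genes. The unfolded protein response element (TGACGTGG or CCACGTCA) was in the window of 1 of them, DNAJC10, at -125 to -118, beside 0.927% of all genes.

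**Figure D4:**
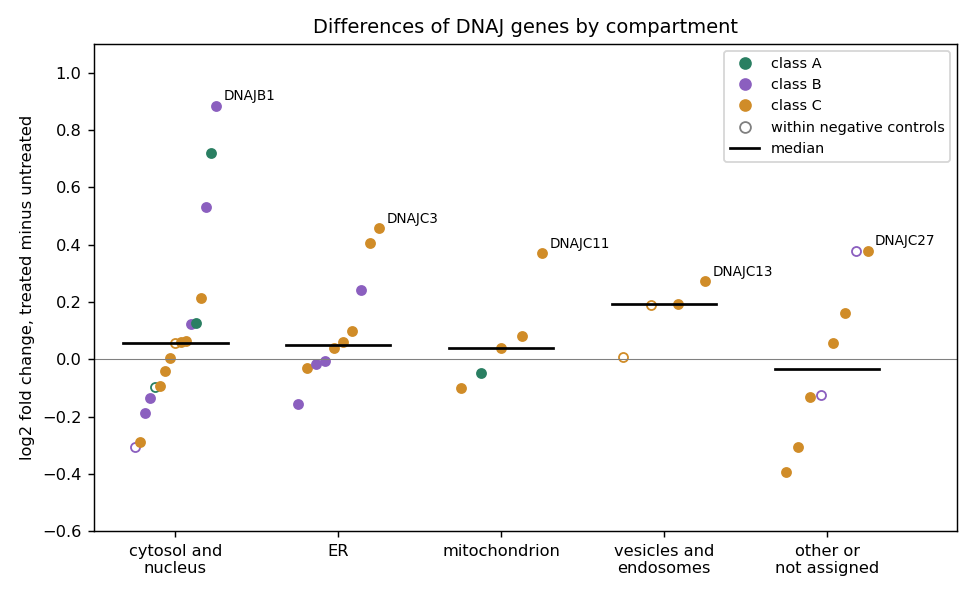
Log2 fold change (y axis, treated minus untreated) of each DNAJ gene by compartment of the protein, coloured by class, with open circles for genes below the background level and a bar for each median. The 3 genes above 0.5 are all in the group of cytosol and nucleus (17 genes), and the ER (10) and mitochondrial (5) groups have medians of 0.050 and 0.041 (the mitochondrial one -0.098 to 0.13 with 1 array left out).

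Of the 5 mitochondrial cochaperones, DNAJC11 alone had treated arrays clear of the untreated ones. This protein, associated with the complex that shapes the cristae, read 10.62 and 10.54 in untreated and 10.93 and 10.97 in treated cells, a log2 fold change of 0.37 (pairs 0.31 and 0.43). DNAJA3 (TID1), the partner of HSPA9 in the matrix, read 10.23 and 10.13 against 10.05 and 10.21, and DNAJC19 (TIM14), the J protein of the import motor, read 10.61 and 10.44 against 10.31 and 10.54. Both had overlapping groups, and the reference table lists 9 pseudogenes of DNAJC19 by symbol. DNAJC15 (MCJ), an inner membrane protein, had a log2 fold change of 0.080, and DNAJC30, another inner membrane protein, had 0.041.

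All 4 members tied to vesicles and endosomes had a higher mean in treated cells, with a median of 0.19 (0.11 to 0.20 with 1 array left out), but 2 of them, the cysteine string protein relatives DNAJC5B (0.010) and DNAJC5G (0.19), lay below the background level, and DNAJC5B turned sign without untreated replicate 1. DNAJC13 (RME-8), which sorts cargo on endosomes, read 11.02 and 11.34 in untreated and 11.34 and 11.56 in treated cells. Its lower treated array lay level with the upper untreated one, and its log2 fold change of 0.27 ran from 0.11 without untreated replicate 1 to 0.43 without untreated replicate 2. DNAJC6 (auxilin), which uncoats clathrin vesicles, read 6.32 and 6.20 against 6.33 and 6.58, and no array placed it above that array's own 90th percentile of negative controls.

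The 8 members of other or unassigned place had 4 higher and 4 lower means and a median of -0.033. This median had no settled sign: it ran from -0.13 to 0.063 with 1 array left out and was 0.058 without probe sets under the 25th percentile of signal. The lowest of the 44 was DNAJC28, at 6.75 and 6.43 in untreated and 6.02 and 6.37 in treated cells. Its log2 fold change was -0.39 (1.31-fold lower; SE 0.26, 95% interval -0.97 to 0.19; limma adjusted p = 1), with both treated arrays below both untreated arrays but only 2 of the 4 above the background of their own array. It was -0.22 without treated replicate 1. DNAJC4 read 11.42 and 11.11 against 11.17 and 10.76, with overlapping groups and a log2 fold change of -0.30 (SE 0.24, 95% interval -0.84 to 0.23; limma adjusted p = 1). That was -0.51 without treated replicate 1 and -0.099 without treated replicate 2. DNAJC27 (RBJ), a small GTPase with a J domain, read 6.54 and 6.88 in untreated and 6.74 and 7.43 in treated cells, a log2 fold change of 0.38 that was 0.033 without treated replicate 2 and 0.73 without treated replicate 1. DNAJC22 differed by 0.16 with overlapping groups.

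DNAJC25 and the read-through transcript DNAJC25-GNG10 share sequence, so their signals may not be separate. DNAJC25 had a log2 fold change of 0.058 with overlapping groups, and DNAJC25-GNG10 read 11.03 and 11.13 in untreated and 10.97 and 10.92 in treated cells, both treated arrays below. DNAJB7 (0.38) and DNAJB13 (-0.12), a radial spoke protein of cilia, completed the group and lay below the background level. For DNAJB7 the replicate pairs gave -0.45 and 1.21.

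By class, the medians were 0.039 in class A (2 higher, 2 lower), -0.011 in class B (5 higher, 7 lower) and 0.059 in class C (20 higher, 8 lower). Class A and class B each held 1 of the 2 genes past the unadjusted threshold and class C none. With 1 array left out at a time the median of class A ran from 0.033 to 0.13, that of class B from -0.054 to 0.0061 and that of class C from 0.0060 to 0.12, and the median of class B was 0.058 when probe sets under the 25th percentile of signal were left out. Within class B, DNAJB1, DNAJB4 and DNAJB5, which are built alike, had log2 fold changes of 0.88, 0.53 and 0.12, and the other 6 genes above the background level lay between -0.19 and 0.24.

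The replicate numbers gave a second view of the same differences. They did not visibly pair the dishes (deviations of same-numbered arrays correlated at -0.0466), so closeness of the 2 pairs depends on the numbering. Both pairs were higher in treated cells for 16 of the 44 genes (36.4%), beside 24.9% of all probe sets, and lower for 8 (18.2%), beside 22.4%. The median of the 44 was 0.00020 in the pair of replicates 1 and 0.093 in that of replicates 2, beside -0.016 and 0.039 over all probe sets. In the plot of pair against pair, DNAJA1 and DNAJB4 lie near the line of equal differences, whereas DNAJB1 lies far to the right of it.

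**Figure D5:**
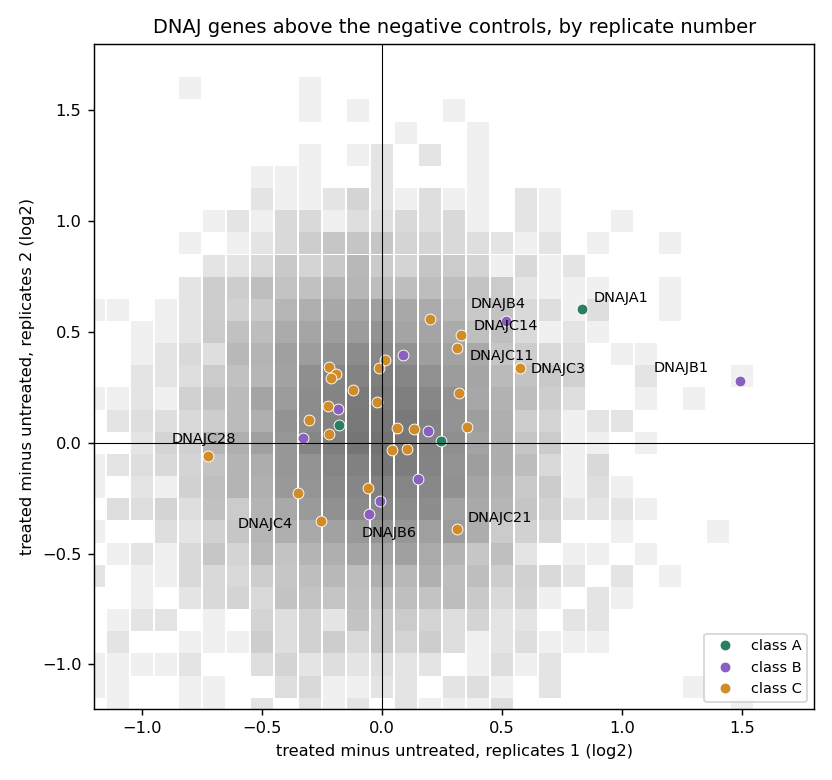
Treated minus untreated difference of replicates 1 (x axis, log2) against that of replicates 2 (y axis, log2) for the 37 DNAJ genes above the background level, over grey squares that darken with the number of all such probe sets; probe sets beyond the axes are not drawn. DNAJB1 sits at 1.49 and 0.28, DNAJA1 at 0.83 and 0.60, and DNAJB4 at 0.52 and 0.55.

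The proteins that J-domain cochaperones work with were taken as a list of 27 genes, chosen with earlier results known, of which 24 were measured. Their median was 0.051 (0.092 to 0.19 with 1 array left out), with 15 higher (62.5%, beside 52.3% of all probe sets) and 9 lower. Both treated arrays lay above both untreated ones in 37.5% of the list, beside 16.3% of all, and below in 16.7%, beside 15.2%. The genes with both treated arrays above include HSPA6, HSPA1L and HSPA2, the 3 measured genes of the list below the background level. At an unadjusted limma p under 0.05, 5 of the 24 passed, HSPA6 and HSPA1L among them, beside 4.95% of all, and 1 passed the adjusted threshold. That gene was HSPA1A, the stress-inducible HSP70 that DNAJB1 and DNAJA1 serve: it read 9.44 and 8.90 in untreated and 11.34 and 11.11 in treated cells, a log2 fold change of 2.05 (limma adjusted p = 0.021, and 0.403 without the replicate block). It is nearly identical to HSPA1B, so its probe set may read both. Among the 13 exchange factors, which release ADP or clients from HSP70, BAG3 was the highest, at 12.49 and 12.35 against 13.44 and 12.99 (log2 fold change 0.80, limma adjusted p = 0.909), and GRPEL2, the exchange factor of mitochondrial HSP70, was the lowest, at -0.43. HSPA6, another stress-inducible HSP70, had 0.78 but lay below the background level, and it was 0.40 without treated replicate 1 and 1.16 without treated replicate 2.

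The main HSP70 proteins of the ER and mitochondria had overlapping groups. HSPA5, the BiP of the ER, read 15.18 and 15.26 against 15.35 and 15.03, and HSPA9, that of mitochondria, read 14.73 and 14.97 against 15.00 and 14.75. HSPA13 had a log2 fold change of -0.33. Of the J-domain proteins with other symbols, GAK, the relative of auxilin found in most cells, read 8.62 and 8.69 in untreated and 7.92 and 8.23 in treated cells, a log2 fold change of -0.58 (limma adjusted p = 0.975). SEC63, the J protein of the ER translocon, had 0.15 and HSCB, that of iron-sulfur cluster assembly, had -0.019. HSPA8 and HSPA1B have no probe set listed under their symbol and were not analysed here.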

How the data were processed

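The authors hybridized total RNA of 786-O cells to Clariom S arrays and deposited log2 signals for each probe set (Affymetrix Expression Console 1.4, with RMA after Signal Space Transformation), per the submitters' processing notes and the study's methods; probe-level steps were not redone. Of 24351 probe sets, 2903 controls (612 of them negative) were left out, and 17709 of the 21448 tested had a symbol; all 44 DNAJ symbols matched RefSeq. Groups and replicate numbers come from the sample labels. Treated and untreated arrays were compared with limma 3.58.1 in R 4.3.3, group and replicate number as terms, because the methods use a paired test; p-values were adjusted by Benjamini-Hochberg over all 21448. The number of arrays limits the precision: 1 residual and 9.60 prior degrees of freedom, and an exact permutation test of 2 against 2 cannot go below p = 0.333. The scripts were tested on simulated data.

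The members, their classes, compartments and roles, the partner list and the rules for named genes were chosen with earlier results of these data known. Named are the 5 highest and 5 lowest genes by log2 fold change, those above the background level whose groups do not overlap, all of the ER and mitochondria, and the 3 brightest and 3 dimmest; other members are named to account for the list. Alternatives were no block, filters on dim probe sets, centring, quantile normalization, another variance prior, a single probe set for each gene, leaving out each array and each replicate pair alone; the negative-control filter combined with no block was added after seeing the data. Motifs were searched in Python 3.11.15, and matplotlib 3.10.9 drew the figures.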

Additional observations from a re-analysis of the deposited data

How the results depend on the processing

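Replicate numbers did not visibly pair the dishes: deviations of same-numbered arrays correlated at -0.0466. Without the replicate block 0 probe sets passed the adjusted threshold, against 7 with it, and 0 of the partner list, against 1 (HSPA1A); no DNAJ gene passed in either fit. Leaving out probe sets under the array median gave 51, those under the background level 49, and the latter with no block 4 (0 of the partner list), a filter and block chosen after seeing the data. Centring the arrays and quantile normalization each gave 0, in the partner list too. The variance prior with a trend gave 69, with 2 DNAJ genes and 2 of the partner list (HSPA1A and BAG3), and the paired t-test 1, with 0 of the partner list. The fits without 1 array at a time had no replicate block, and 1 group then held a single array. They changed the arrays and the block together, so their effects on the counts cannot be told apart. The causes of the changes in count were not tested. With a fold of at least 1.5 in place of 2, 2 DNAJ genes passed p and fold; with 1 array left out, 0 to 1 passed with a fold of at least 2 (DNAJB1, without untreated replicate 2 or treated replicate 2). The smallest adjusted p of a DNAJ gene then was 0.4996.

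The median of the 44 genes ran from -0.022 to 0.068 with 1 array left out. Of the 44, 25 kept their sign throughout and 19 did not. Their log2 fold changes ran from -0.13 to 0.032 (DNAJA3), -0.29 to 0.10 (DNAJA4), -0.18 to 0.93 (DNAJB7), -0.0068 to 0.25 (DNAJB5), -0.11 to 0.10 (DNAJB14), -0.12 to 0.092 (DNAJB9), -0.13 to 0.25 (DNAJC17), -0.23 to 0.35 (DNAJC18), -0.17 to 0.29 (DNAJC25), -0.37 to 0.48 (DNAJC12), -0.13 to 0.21 (DNAJC30), -0.11 to 0.19 (DNAJC10), -0.060 to 0.080 (DNAJC5B), -0.020 to 0.033 (DNAJC8), -0.36 to 0.30 (DNAJC16), -0.41 to 0.33 (DNAJC21), -0.22 to 0.035 (DNAJC7), -0.22 to 0.019 (DNAJC19) and -0.58 to 5.5e-06 (DNAJC24). Among partners, HSPA9 ran from -0.11 to 0.14 and HSPA5 from -0.19 to 0.13. Centring turned DNAJC5B (-0.000639) and DNAJC8 (-0.00439), and quantile normalization turned DNAJC5B (-0.030) and HSPA5 (0.0057).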
